A study of Mus musculus with 8 samples.

Results

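The genes described are the receptors for the main excitatory and inhibitory transmitters of the mouse brain, glutamate and GABA. They were taken by symbol, as the Gria, Grid, Grik, Grin, Grm, Gabr and Gabbr families, and comprised 48 of 23523 features measured, of which 43 are described. One gene that matched the symbol rule encodes a scaffold and is no subunit. RNA was sequenced from 5 mouse glioblastomas and 3 samples of normal mouse brain. A lentiviral vector carrying HrasG12V, an activated oncogene, together with a short hairpin RNA against p53 had induced the tumours, which were collected at the clinical endpoint and freed of normal brain under a microscope by their green fluorescence. The normal samples are labelled only as normal mouse brain, and whether they were the tissue trimmed from tumours is not stated. The sources used here do not give the strain, age and sex of the mice, the brain region of the normal samples or the cells hit by the vector. The labels do not say whether replicates are separate mice, so p-values measure the spread between these samples, which may be technical.

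Glutamate opens ionotropic receptors of the AMPA, kainate and NMDA classes, complexes of several subunits that pass cations. The delta subunits belong to the same protein family but act mainly as synaptic organisers. Metabotropic glutamate receptors signal through G proteins. GABAA receptors are chloride channels built from several subunits, commonly alpha, beta and gamma, and GABAB receptors are pairs of Gabbr1 and Gabbr2 coupled to G proteins. Neurons carry most of these receptors at synapses, while astrocytes and oligodendrocyte precursors hold some of them, such as AMPA receptors and Grm3 or Grm5.

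The stretch that lines the AMPA receptor pore is shown for the 4 subunits, because 1 codon in it sets how Gria2 behaves. The bases are from the GENCODE M21 transcripts on GRCm38, in capitals is the codon of the glutamine/arginine site, and each window lies within 1 exon.
Gria1: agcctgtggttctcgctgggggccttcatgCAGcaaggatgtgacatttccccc
Gria2: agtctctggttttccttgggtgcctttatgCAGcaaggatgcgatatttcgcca
Gria3: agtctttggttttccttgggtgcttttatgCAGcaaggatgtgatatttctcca
Gria4: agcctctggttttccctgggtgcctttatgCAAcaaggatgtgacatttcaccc
The windows lie at chr11:57243064-57243117 on the plus strand for Gria1, chr3:80706890-80706943 on the minus strand for Gria2, chrX:41610235-41610288 on the plus strand for Gria3 and chr9:4464116-4464169 on the minus strand for Gria4. They lie in exon 11 of the transcripts of Gria1, Gria2 and Gria3 and in exon 12 of that of Gria4. Of 54 bases, 43 were the same as in Gria2 for Gria1, 50 for Gria3 and 47 for Gria4. All 4 genes encode glutamine there. Gria4 differs from Gria2 in the last base of the codon as G33A, counted from 1 at the 5′ end of the window. In brain the Gria2 transcript is edited at this codon to one read as arginine, which makes channels poorly permeable to calcium. Fragment counts do not read that editing.

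The promoters of Gria2 and Grm2 are shown because the letters of a neuron-restrictive (RE1) silencer element stand in them. The Gria2 window, RefSeq bases of GRCm38.p6 at chr3:80802836-80803085 on the minus strand, holds the 250 bases before the gene's start, with the element in capitals.
Gria2 promoter: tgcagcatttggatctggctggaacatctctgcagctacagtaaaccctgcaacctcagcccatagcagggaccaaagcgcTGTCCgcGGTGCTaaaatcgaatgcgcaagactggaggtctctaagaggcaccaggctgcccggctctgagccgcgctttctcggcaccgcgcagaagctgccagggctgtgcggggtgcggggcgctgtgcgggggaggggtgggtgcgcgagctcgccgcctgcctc
The motif searched was AGCACC and GGACA with 2 bases between, on both strands, here found on the opposite strand. It stood in 19 of 32851 such mouse windows, or 0.0578%, and among the 33 receptor genes with a window it stood in that of Gria2. A split form, CAGCACC and GGACAG with 7 bases between, stood in 2 windows (0.00609%), one of them that of Grm2 at chr9:106656320-106656359 on the minus strand.
Grm2 promoter: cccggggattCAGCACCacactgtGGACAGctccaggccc
The flanking pieces alone were common, with CAGCACC in 5.73% and GGACAG in 18.7% of all windows. These matches are letters in a window and describe no binding.

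The libraries held 5490356 to 15564279 fragments, and levels are given as CPM, in which fragments are scaled to a common library total with TMM factors. Hras, the oncogene of the vector, averaged higher in glioblastoma (log2 fold change 2.05, edgeR adjusted p = 1.87e-05). Trp53, whose message the hairpin targets, had 2.74 to 5.92 CPM in glioblastoma, against 4.74 to 7.21 CPM in brain, and did not pass (edgeR adjusted p = 0.262). The 12 general neuronal markers summed to 943 to 1261 CPM in glioblastoma, against 9650 to 10554 CPM in brain. Of these, 9 were called lower, where 33.9% of all genes tested were, and 3 had no call, namely Nefl, Nefm and Stmn2. Stmn2 had 60.4 to 349 CPM in glioblastoma, against 225 to 257 CPM in brain. The 9 markers of glutamatergic neurons summed to 14.5 to 36.6 CPM in glioblastoma, against 1591 to 2002 CPM in brain, and none of them was at 0 in every tumour. All 9 were called lower. The 8 markers of GABAergic interneurons summed to 31.0 to 151 CPM in glioblastoma, against 495 to 558 CPM in brain. Of these, 6 were called lower, and Npy and Lhx6 had no call. In such tissue pieces, fewer cells of a type and less RNA per cell cannot be told apart, and the part of neuron content in the results below was not tested.

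Of the 43 receptor genes, 34 were abundant enough to be tested. Of these, 30 were lower in glioblastoma, 1 was higher and 3 had no call by edgeR's quasi-likelihood test at an adjusted p under 0.05. Among all 14641 genes tested, 33.9% were called lower and 37.1% higher. The median log2 fold change, glioblastoma over brain, was -3.86 over the tested receptor genes and 0.06 over all genes. No overlap between groups was seen for 31 of the 34, and 30 of those were lower in glioblastoma, where over all genes 70.6% did not overlap and 34.5% were lower without overlap. The filter on low counts was passed by 27 members in at least 3 samples of each group, of which 24 were called lower. It was passed by Gabrd, Grin2c, Grin2d, Grik1, Grm2 and Grm4 through the brains alone, and by Gabre through the glioblastomas alone. For these 7 the filter itself favoured the direction seen, so their calls count for less. The 9 untested genes were the scaffold gene, Grin3b, Gabra6, Grm6, Gabrq, Gabrp, Gabrr1, Gabrr2 and Gabrr3.

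**Figure D1:**
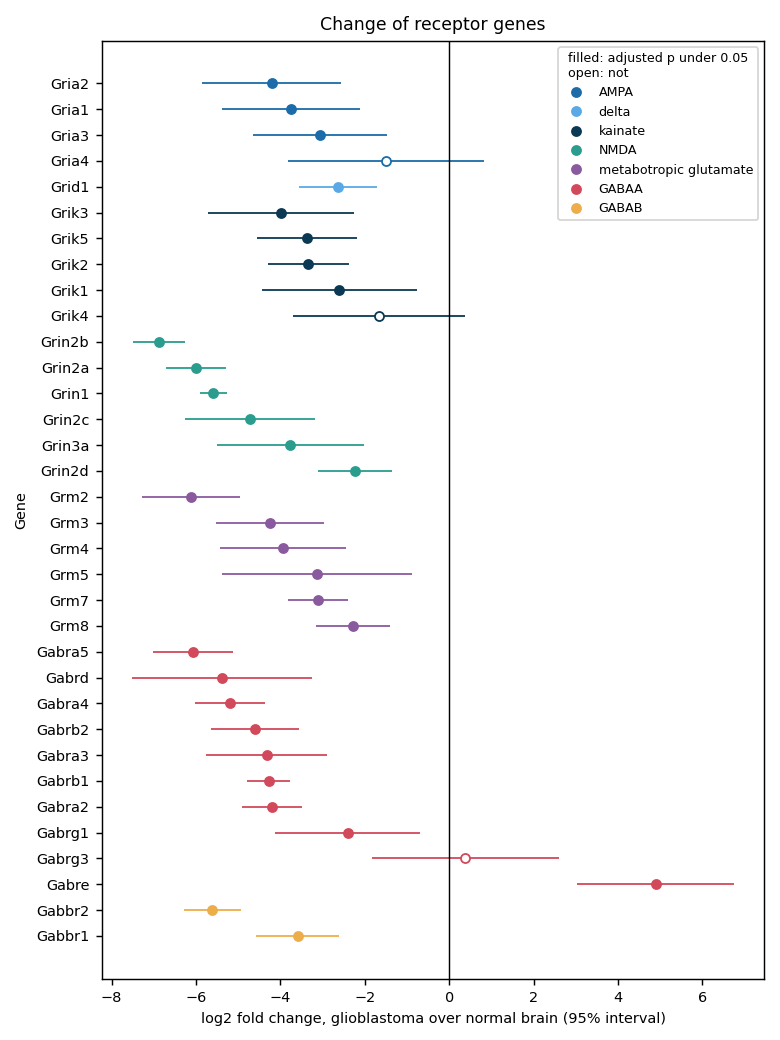
Log2 fold change of the 34 tested receptor genes, glioblastoma over normal brain, with its 95% interval; colours mark the class, filled points have an edgeR adjusted p under 0.05 and open points do not. The 30 called falls lie between -6.88 (Grin2b) and -2.23 (Grin2d), Gabre lies alone at 4.90, and the intervals of Gria4, Grik4 and Gabrg3 cross 0.

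Of the 4 AMPA receptor genes, which carry fast excitatory transmission, 3 were lower in glioblastoma and 1 had no call. Gria2, the subunit that limits calcium entry and the most abundant per length in brain (mean 287 FPKM), had 128, 27.8, 27.2, 221 and 40.7 CPM in glioblastomas 1 to 5, against 1562, 1875 and 1508 CPM in brains 1 to 3. All 5 tumours lay far below all brains, with tumours 1 and 4 above the other 3. Gria2 fell by -4.21 ± 0.72 on the log2 scale (SE, edgeR adjusted p = 0.000786), the largest fall among the AMPA genes. Without tumour 4 the log2 fold changes of Gria1, Gria2 and Gria3 were -4.51, -4.87 and -3.70, still called. Gria1 averaged 68.8 CPM in glioblastoma and 926 CPM in brain, and Gria3 averaged 54.0 CPM and 452 CPM in the same order. Gria4, a subunit of fast-gating channels, had 80.0, 8.12, 7.94, 229 and 16.9 CPM in glioblastomas 1 to 5, against 199, 175 and 213 CPM in the 3 brains. Tumour 4 lay above every brain and tumours 2 and 3 were the lowest, so the groups overlapped. Its log2 fold change was -1.51 ± 1.02 (SE, 95% interval -3.83 to 0.81, edgeR adjusted p = 0.212). Without tumour 4 it was -2.79 (edgeR adjusted p = 0.00889).

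Among delta receptor genes, Grid1 had 16.3, 6.13, 7.69, 23.8 and 10.4 CPM in glioblastomas 1 to 5, against 64.1, 89.2 and 89.7 CPM in the 3 brains. It fell in glioblastoma without overlap between the groups (log2 fold change -2.64 ± 0.41, SE, edgeR adjusted p = 0.000425).

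Of the 5 kainate receptor genes, 4 were lower and 1 had no call. Grik1, among those lower, passed the filter on low counts through the brains alone, so the filter itself favoured its fall. Grik2, a core subunit and the most abundant per length in brain, had 19.2, 12.3, 5.92, 22.7 and 6.95 CPM in glioblastomas 1 to 5, against 116, 140 and 151 CPM in the 3 brains. The groups were well apart (log2 fold change -3.33 ± 0.43, SE, edgeR adjusted p = 0.000141). Grik3 had 12.4, 1.08, 1.51, 16.7 and 4.44 CPM in glioblastomas 1 to 5, against 81.9, 129 and 143 CPM in the 3 brains. It fell most of the kainate genes (log2 fold change -3.99 ± 0.76, SE, edgeR adjusted p = 0.00144). Grik4, an auxiliary-type subunit that needs a core subunit to form channels, had 9.15, 0.722, 1.64, 26.9 and 3.39 CPM in glioblastomas 1 to 5, against 26.2, 26.7 and 28.8 CPM in the 3 brains. Tumour 4 reached the brain level, while tumour 2 was the lowest. Its log2 fold change was -1.66 ± 0.89 (SE, 95% interval -3.70 to 0.38, edgeR adjusted p = 0.125), and without tumour 4 it was -2.86 (edgeR adjusted p = 0.00214). Grik1 and Grik5 fell by -2.60 and -3.37 on the log2 scale. Without that tumour Grik1, Grik3 and Grik5 were at -3.67, -4.60 and -3.99. Unlike edgeR on all samples, limma on log2(FPKM + 1) called Gria4 and Grik4 lower as well.

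All 6 tested NMDA receptor genes were lower in glioblastoma, with a median log2 fold change of -5.16. Of these, Grin2c and Grin2d passed the filter on low counts through the brains alone, so the filter itself favoured their fall. NMDA receptors pass calcium when glutamate binds and the membrane is depolarised, and Grin1 is the subunit that every one of them needs. Grin1 had 5.58, 7.58, 5.92, 7.10 and 6.95 CPM in glioblastomas 1 to 5, against 329, 322 and 311 CPM in the 3 brains. The 5 tumours lay close together, with an SD of log2 CPM of 0.180, the smallest of the 34 genes. The fall was -5.59 ± 0.14 on the log2 scale (SE, edgeR adjusted p = 1.64e-07). Grin2b, which gives slowly decaying currents, had 7.14, 7.76, 4.41, 3.67 and 5.25 CPM in glioblastomas 1 to 5, against 577, 694 and 687 CPM in the 3 brains. Every tumour lay below 2% of the brain mean, the group mean was 0.865% of it, and no other receptor gene described had a larger fall (log2 fold change -6.88 ± 0.27, SE, edgeR adjusted p = 4.21e-07). Grin2a, Grin2c, Grin2d and Grin3a fell by log2 fold changes of -6.00, -4.72, -2.23 and -3.76. Grin2c was at -5.67 without tumour 2 and Grin3a at -4.53 without tumour 4. Grin3b, the other GluN3 subunit, had 5 fragments over the glioblastomas and 3 over the brains and was not tested.

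The 6 tested metabotropic glutamate receptor genes described were all lower in glioblastoma. Of these, Grm2 and Grm4 passed the filter on low counts through the brains alone, so the filter itself favoured their fall. Grm5, a group I receptor coupled to calcium release and the most abundant of them per length in brain, had 107, 11.5, 12.2, 246 and 18.2 CPM in glioblastomas 1 to 5, against 549, 815 and 726 CPM in the 3 brains. Tumours 1 and 4 stood well above the other 3, and all lay below the brains. The fall was -3.13 ± 0.99 on the log2 scale (SE, edgeR adjusted p = 0.0191), and it was -4.22 without tumour 4. Grm2, a group II receptor that restrains release at presynaptic terminals and whose promoter is printed above, had 0.931, 0, 0.504, 0.175 and 0.404 CPM in glioblastomas 1 to 5, against 27.7, 29.3 and 25.6 CPM in the 3 brains. It was near the detection limit in every tumour and fell most of those described (log2 fold change -6.12 ± 0.51, SE). Grm3, the group II receptor also found in astrocytes, had 9.62, 8.84, 5.04, 31.6 and 7.19 CPM in glioblastomas 1 to 5, against 299, 212 and 216 CPM in the 3 brains. It fell by -4.25 on the log2 scale, and by -4.98 without tumour 4. Grm4, Grm7 and Grm8 fell by log2 fold changes of -3.95, -3.11 and -2.28. Grm6, known from the synapse of retinal ON bipolar cells, went the other way but was too low to be tested. It had 51 fragments over the 5 glioblastomas, against 0 over the 3 brains, which is at least 6.93-fold higher when the floor is 3 fragments over the brains together. Tumour 5 held 30 of these fragments, and without it the bound was at least 3.81-fold higher, from 21 fragments.

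**Figure D2:**
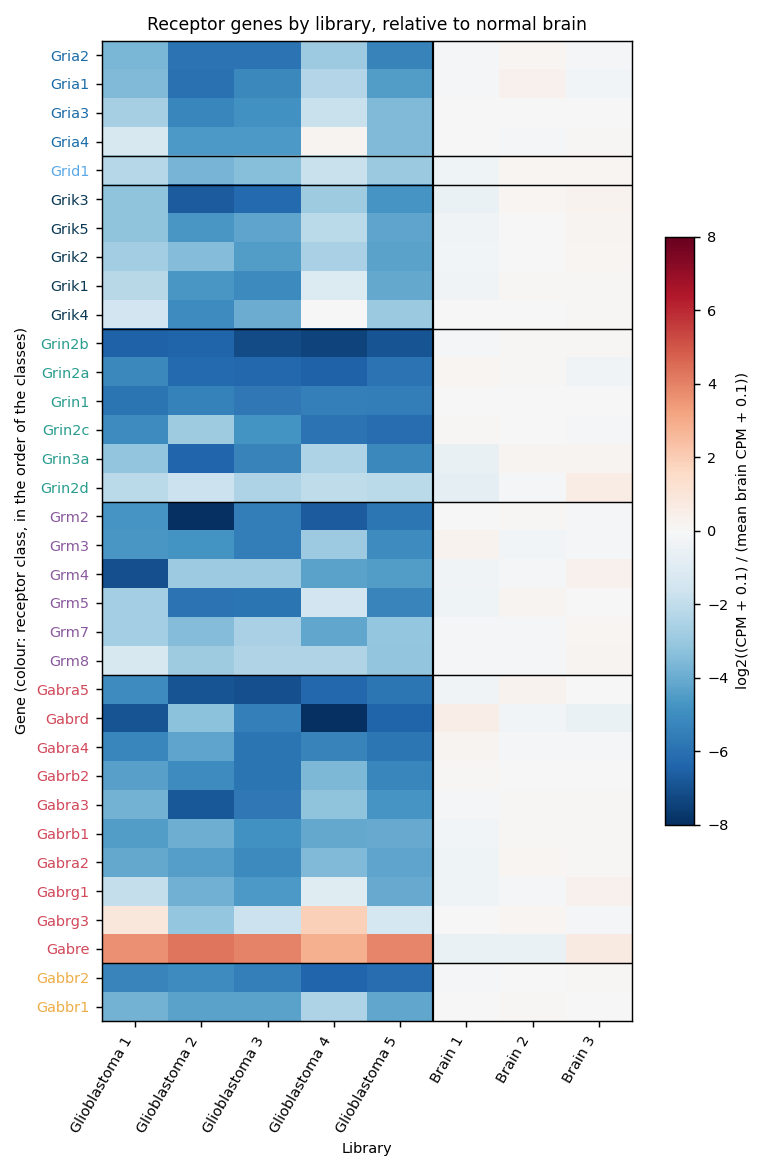
Level of each tested receptor gene (down the page, by class) in each library (5 glioblastomas left of 3 brains), as log2 of CPM + 0.1 over the mean of the brains plus 0.1, with the colour scale limited to ±8. Blue marks levels below the brain mean: Grin1 and Grin2b are dark in all 5 tumours, Gria4 and Grik4 are pale in tumour 4, and Gabre is the only gene red in every tumour.

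Of the 16 GABAA receptor genes described, 8 were lower, 1 was higher, 1 had no call and 6 were not tested. Gabrd passed the filter on low counts through the brains alone and Gabre through the glioblastomas alone. The filter itself thus favoured the direction seen for both. Gabrb2, a beta subunit and among them the most abundant per length in brain, had 35.2, 21.8, 12.7, 60.2 and 19.6 CPM in glioblastomas 1 to 5, against 785, 704 and 700 CPM in the 3 brains. The groups were far apart (log2 fold change -4.60 ± 0.46, SE, edgeR adjusted p = 3.56e-05). Gabra5, an alpha subunit of receptors outside synapses, had 4.81, 1.26, 1.13, 2.04 and 2.91 CPM in glioblastomas 1 to 5, against 135 to 195 CPM in the 3 brains, and fell most of the GABAA genes described (log2 fold change -6.07 ± 0.41, SE, edgeR adjusted p = 4.52e-06). Gabra2, Gabra3 and Gabra4 fell by -4.19, -4.32 and -5.20 on the log2 scale, and the beta subunit gene Gabrb1 by -4.28. Gabrd, a delta subunit of receptors that sense ambient GABA in thalamus, dentate gyrus and cerebellum, had 0.310, 5.05, 1.01, 0.0582 and 0.485 CPM in glioblastomas 1 to 5, against 71.6, 41.7 and 33.8 CPM in the 3 brains. Tumour 2 was the highest tumour, and the log2 fold change of -5.38 was -6.82 without it. Brain 1 was the highest brain, and it stood apart in other ways. In brains 1 to 3 the 5 thalamic markers summed to 182, 66.1 and 108 CPM, the 9 striatal markers to 463, 315 and 296 CPM, and the 8 myelin markers to 5947, 3040 and 3031 CPM. The 11 cerebellar markers summed to 170, 238 and 246 CPM in brains 1 to 3, of which Calb1 alone gave 120, 191 and 189 CPM. The other cerebellar markers shared no order. In brains 1 to 3 Car8 had 16.2, 8.66 and 11.5 CPM, while Cbln1 had 6.43, 11.5 and 14.2 CPM. The part of tissue make-up in this spread was not tested.

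Gabrg1 and Gabrg3 encode gamma subunits, a common part of GABAA receptors. Gabrg3 had 21.7, 1.26, 3.53, 44.2 and 4.36 CPM in glioblastomas 1 to 5, against 11.2, 13.0 and 10.8 CPM in the 3 brains. Tumours 1 and 4 lay above all brains and the other 3 below all of them. Its log2 fold change was 0.39 ± 0.97 (SE, 95% interval -1.82 to 2.59, edgeR adjusted p = 0.735), and it was -0.59 without tumour 4. Gabrg1 fell by -2.40 on the log2 scale (edgeR adjusted p = 0.0189). It was at -3.25 without tumour 4 and at -2.18 without brain 3, where it had no call (edgeR adjusted p = 0.0610). Gabre, an epsilon subunit, was the only one of the 34 called higher, at 1.71, 2.71, 2.14, 0.932 and 2.101 CPM in glioblastomas 1 to 5, against 0, 0 and 0.136 CPM in the 3 brains. It had 85 fragments over the tumours, against 1 fragment over the brains, a ratio of 34.7 with a counting interval of 6.22 to 1369. It was detected in every tumour, but at a low level. Without brain 3 the other brains held 0 fragments, and with 3 fragments over them as the floor it was at least 7.35-fold higher. On the log2(FPKM + 1) scale of limma its difference was 0.73.

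The GABAB receptor needs both of its subunits, and both fell. Gabbr1, which binds GABA, had 56.3, 39.9, 39.7, 138 and 42.6 CPM in glioblastomas 1 to 5, against 751, 800 and 741 CPM in the 3 brains (log2 fold change -3.59 ± 0.43, SE, edgeR adjusted p = 9.62e-05). Gabbr2, which couples to the G protein, had 6.20, 7.40, 5.55, 2.97 and 3.56 CPM in glioblastomas 1 to 5, against 231, 245 and 261 CPM in the 3 brains (log2 fold change -5.61 ± 0.30, SE, edgeR adjusted p = 1.31e-06). Tumour 4 had the most Gabbr1 and the least Gabbr2 of the 5.

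The balance of subunits within a family was taken from FPKM, the level per length, for families with all subunits described, and is given as a description with no test. Gabbr1 made up 88.9, 82.7, 86.4, 97.6 and 91.4% of GABAB FPKM in glioblastomas 1 to 5, against 74.3, 74.3 and 71.6% in the 3 brains. Gria2 made up 36.0, 43.9, 32.1, 28.9 and 28.7% of AMPA FPKM in glioblastomas 1 to 5, against 49.4, 48.7 and 48.5% in the 3 brains. Gria4 made up 22.6, 16.1, 14.0, 32.3 and 16.1% in glioblastomas 1 to 5, against 9.88, 7.38 and 10.6% in the 3 brains. Gria3 made up 17.1 to 27.5% in glioblastoma, against 13.3 to 15.9% in brain. So the share of the calcium-limiting subunit was lower, and those of Gria3 and Gria4 higher, in every tumour than in every brain, while the share of Gria1 overlapped. Grin2b made up 38.8 to 42.9% of GluN2 FPKM in glioblastoma, against 57.8 to 68.6% in brain, and by CPM in place of FPKM it made up 51.7 to 56.0% in glioblastoma, against 69.7 to 78.6% in brain. Grin2d, a subunit prominent in early life and in interneurons, made up 5.89 to 13.7% in glioblastoma, against 0.33 to 0.83% in brain, at tumour levels under 1 CPM. The shares of Grin2a and Grin2c overlapped between the groups. Among kainate shares only that of Grik3 did not overlap, at 3.11 to 12.1% in glioblastoma, against 14.6 to 18.8% in brain. Grik2 made up 22.0 to 66.4% in glioblastoma, against 37.2 to 39.2% in brain. Both group II metabotropic shares overlapped, and so did those of group III apart from Grm6.

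**Figure D3:**
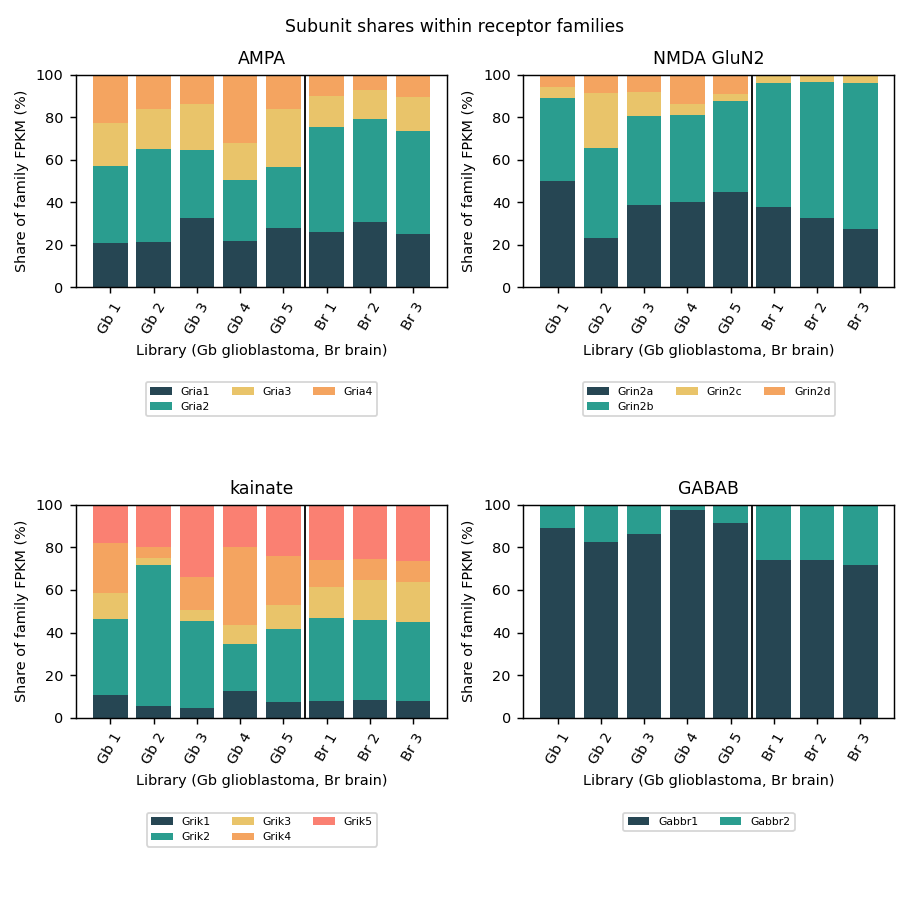
Share of the summed FPKM of a receptor family taken by each subunit, in percent, in 5 glioblastomas (Gb, left of the line) and 3 normal brains (Br). Gria2 fills 28.7 to 43.9% of AMPA FPKM in the tumours and 48.5 to 49.4% in the brains, and Gabbr1 fills 82.7 to 97.6% of GABAB FPKM in the tumours and 71.6 to 74.3% in the brains.

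The tumours differed among themselves more than the brains did. The SD of log2 CPM was larger in glioblastoma for 33 of 34 receptor genes, where this held for 85.1% of all genes tested. Its median was 0.929 in glioblastoma and 0.203 in brain over the receptor genes, and 0.379 and 0.154 over all genes. Gria4, Grm5 and Gabrg3 varied most, with SDs among tumours of 2.13, 2.003 and 1.99. Tumours 1 and 4 were the 2 highest for 20 of the 34 genes, where this held for 22.1% of all genes tested. Among the genes called lower, it held for 17 of the 30 receptor genes and for 35.3% of all genes. The summed AMPA level was 11.1, 1.9, 2.4, 23.7 and 4.3% of the brain mean in glioblastomas 1 to 5, and the summed NMDA level was 2.3, 1.8, 1.3, 2.4 and 1.5%. So tumours 1 and 4 stood apart for the summed AMPA level and hardly for the summed NMDA level. Among the tested NMDA genes, Grin3a alone had tumours 1 and 4 as the 2 highest. It had 10.9, 1.08, 2.27, 17.6 and 2.67 CPM in glioblastomas 1 to 5, with an SD of log2 CPM of 1.57. Tumour 2 was instead the highest for 9 genes, among them Grin1, Grin2b, Gabrd and Gabbr2.

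The summed markers of oligodendrocyte precursors, astrocytes and myelinating oligodendrocytes were also highest in tumours 1 and 4. Over the 11 precursor markers, 2 were called higher, 2 lower and 7 had no call, and their sum was 1573, 911, 733, 2413 and 1301 CPM in glioblastomas 1 to 5, against 334, 318 and 338 CPM in the 3 brains. No marker was at 0 in every tumour. All of them but Vcan and Nkx2-2 had tumours 1 and 4 as the 2 highest tumours. Olig1, with no call, had 93.1, 5.59, 4.16, 266 and 5.98 CPM in glioblastomas 1 to 5, against 67.8, 45.0 and 43.1 CPM in the 3 brains. Vcan, called higher and with Pdgfra the largest part of the sum, did not follow it. It had 429, 757, 466, 211 and 897 CPM in glioblastomas 1 to 5, against 31.5, 35.8 and 33.5 CPM in the 3 brains. The 10 astrocyte markers summed to 1044, 1003, 819, 1806 and 954 CPM in glioblastomas 1 to 5, against 2323 to 2612 CPM in brain. The 8 myelin markers summed to 517, 458, 246, 730 and 219 CPM in glioblastomas 1 to 5, against 3031 to 5947 CPM in brain. The general neuronal markers differed among themselves, with Map2 at 243, 61.7, 53.3, 440 and 91.3 CPM and Nefl at 240.3, 440.4, 442, 107 and 281 CPM in glioblastomas 1 to 5. In the 3 brains Map2 had 1293, 1520 and 1580 CPM, and it was called lower. Nefl had 521, 420 and 426 CPM there, with no call (edgeR adjusted p = 0.210). Vcan, Nkx2-2, Olig1, Pdgfra, Map2 and Nefl, and Nefm, Stmn2, Npy, Lhx6, Calb1, Car8 and Cbln1 above, were named after their values were seen. The part of the mix of cell types in the receptor levels was not tested.

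**Figure D4:**
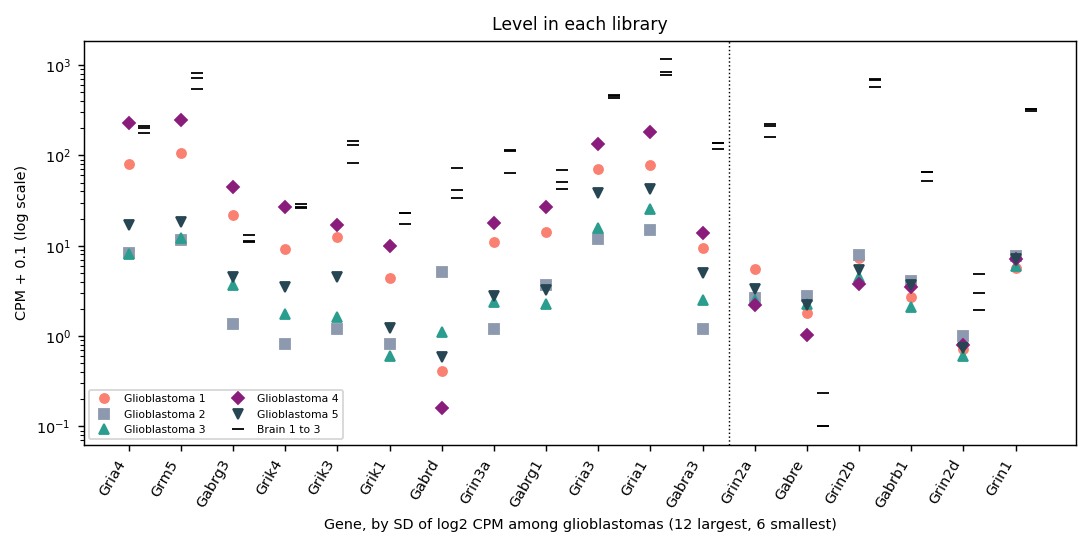
CPM + 0.1 on a log axis in each library for the 12 receptor genes with the largest and the 6 with the smallest SD of log2 CPM among glioblastomas, split by the dotted line; symbols are glioblastomas and dashes to their right are the brains. Glioblastomas 1 and 4 lead for Gria4, Grm5 and Gabrg3, whose SDs are 2.13, 2.003 and 1.99, while the 5 tumours nearly coincide for Grin1 (0.180).

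Partners of the receptors mostly fell too, where 33.9% of all genes tested were called lower and 37.1% higher. Of 16 auxiliary proteins of AMPA and kainate receptors, 13 were lower and 3 had no call, and the largest falls were those of Nptxr, a pentraxin receptor that gathers AMPA receptors (log2 fold change -6.69 ± 1.30, SE, edgeR adjusted p = 0.00159), and Cacng2, the AMPA receptor auxiliary protein stargazin (log2 fold change -6.68 ± 0.30, SE, edgeR adjusted p = 5.74e-07), too close to be ranked. Nptxr had 0, 0, 0, 0 and 0.808 CPM in glioblastomas 1 to 5, against 1.69, 12.7 and 51.0 CPM in the 3 brains, so its brains differed widely, and its log2 fold change was -5.12 without brain 3. Without tumour 5 the other tumours held 0 fragments, and with 3 fragments over them as the floor it was at least 289-fold lower. Some of its fragments were split with another transcript, so its level is uncertain. Cacng2 and Cacng5, also an AMPA receptor auxiliary protein, were named after their values were seen. Cacng5 had 32.4, 2.71, 2.39, 84.7 and 2.75 CPM in glioblastomas 1 to 5, against 6.43, 13.3 and 16.1 CPM in the 3 brains. Tumours 1 and 4 were again above the brains, and the gene had no call (log2 fold change 1.08, edgeR adjusted p = 0.452).

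The counts that follow stand beside the same 33.9% of all genes tested called lower and 37.1% higher. Of 18 excitatory scaffold genes, 17 were lower and 1 was higher. Dlgap2, which links receptors to the postsynaptic density, fell most (log2 fold change -6.32, edgeR adjusted p = 5.74e-07), and Homer3, an adaptor of group I metabotropic receptors, was higher (log2 fold change 1.89, edgeR adjusted p = 0.000175). Of 10 genes of the inhibitory scaffold and GABAB partners, 9 were lower and 1 was higher. Kctd16, an auxiliary subunit of GABAB receptors, fell most (log2 fold change -5.37, edgeR adjusted p = 4.12e-06), and Gabarap, which also acts in autophagy, rose (log2 fold change 1.28, edgeR adjusted p = 3.34e-05). Of 11 genes of glutamate release, uptake and synthesis, 9 were lower and 2 had no call, led by Slc17a7, the vesicular glutamate transporter (log2 fold change -6.57, edgeR adjusted p = 1.57e-06). Of 10 tested genes of GABA handling and chloride transport, 9 were lower and 1 had no call, led by Slc12a5, the neuronal chloride exporter (log2 fold change -5.94, edgeR adjusted p = 2.65e-07). All 3 tested glycine receptor subunits, of 5, were lower, led by Glra2 (log2 fold change -5.65, edgeR adjusted p = 4.32e-05).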

How the data were processed

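RNA was measured in 5 glioblastomas and 3 normal brains, grouped by the labelled tissue. The submitters' processing notes name STAR 2.3.0e, Cuffdiff 2.1.1 and mm9, and the sources used here give no settings, annotation release or strand handling. The authors deposited estimated counts of fragments for 30967 RefSeq accessions, per the file headers, and FPKM values scaled per library by the authors. Here the estimated counts were summed per gene symbol and rounded, since 97.8% of the sums but 33.2% of the accession values were whole within 0.01. No receptor gene had split fragments or a failed value. Symbols came from RefSeq tables, and 315 accessions without one held 0.507% of fragments. Library totals were 5490356 to 15564279 fragments, and 3 fragments were 0.193 to 0.546 CPM in a library. Intervals on ratios cover counting error only.

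Groups were compared with edgeR 4.0.16 using TMM, its default filter and the robust quasi-likelihood F test, adjusted by Benjamini-Hochberg over 14641 genes. Standard errors come from the F statistic. In simulated data for the same comparison of glioblastoma with normal brain, it recovered 73.3% of 4-fold and 17.4% of 2-fold changes among 14356 genes, and 4.26% of its calls were false. Alternatives used DESeq2 1.42.0 and limma 3.58.1 in R 4.3.3. The text names, per class, the member highest in FPKM in brain, the largest called fall, all members called higher or without a call, and the 3 members most variable among glioblastomas; of each partner list, it names the largest called change in each direction. Of 48 genes that matched by symbol, 5 are not reported here, and counts are over the other 43. The members, lists and rule were chosen with earlier results of these data known. Motifs were searched in RefSeq windows of GRCm38.p6, which is not the build of the counts.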

Additional observations from a re-analysis of the deposited data

Results flagged for a closer look

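Among the 34 tested receptor genes, the level in 1 tumour stood apart from the other 4 for Gabbr1. Glioblastoma 4 had 138 CPM, where the median of the other 4 tumours was 41.2 CPM, and its gap to the nearest of them was 0.720 of the group's range of log2 CPM, above the critical value of 0.71 for 5 samples. It lay below the 741 to 800 CPM of the brains. Chance flags about 1 in 20 groups, and 34 were examined.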

How the results depend on the processing

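Between 29 and 32 receptor genes were lower under the alternatives, against 30 in the main test. DESeq2 and the fit with no filter called 2 higher, the added gene being Grm6, and the filter of 5 CPM in 3 samples called 0 higher, also among GABAA genes, since Gabre was not tested there. Gria4 and Grik4 were called lower with limma on log2(FPKM + 1), with limma on log2(FPKM + 0.1) and without glioblastoma 4. Gabrg1 lost its call without brain 3 (log2 fold change -2.18, edgeR adjusted p = 0.0610). Gabrg3 changed sign to -0.44 and -0.67 with limma at pseudocounts of 1 and 0.1, and to -0.59 without glioblastoma 4, in a range of -0.59 to 0.68 over the samples left out. Cacng5 changed sign to -0.30 with limma at 0.1 and to -0.26 without glioblastoma 4, in a range of -0.26 to 1.37 over the samples left out. By CPM in place of FPKM, the glioblastoma share of Grin2b was 54.2%. Leaving out each sample in turn gave 29 to 32 members lower and 1 to 1 higher. By class it gave 3 to 4 AMPA, 4 to 5 kainate and 7 to 8 GABAA genes lower, with NMDA at 6, metabotropic at 6 and GABAB at 2 throughout. Of the partner lists it gave 12 to 13 auxiliary, 8 to 9 glutamate and 8 to 9 GABA handling genes lower, and 17 excitatory scaffold, 9 inhibitory scaffold and 3 glycine receptor genes lower throughout.

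Without glioblastoma 4, 13 receptor genes moved by over 1.5 times, among them Gria1 to -4.51, Gria2 to -4.87, Gria3 to -3.70, Grik1 to -3.67, Grik3 to -4.60, Grik5 to -3.99, Grin3a to -4.53, Grm3 to -4.98 and Gabrg1 to -3.25. Without glioblastoma 2, Gabrd was -6.82 and Grin2c -5.67. With limma on log2(FPKM + 1), 18 moved by as much, among them Grm2 to -3.07, Grin2c to -2.25, Grin2d to -0.56 and Gabre to 0.73, all smaller changes. Gria4 and Grm5 moved to larger falls instead, at -2.77 and -3.78. Scaling by library size alone put the median of all genes at 0.20, and by upper quartile at 0.18, against 0.06. The cause of these shifts was not tested. No paired analysis was possible because nothing in the labels or the file ties a replicate number of a glioblastoma to one of a brain. Genes with a few fragments, such as Gabre, Grm6 and Grin2d, are limited by depth, and Grin2d was not tested once libraries were thinned to the smallest total.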
